A study of Mus musculus with 16 samples.

Results

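The non-LC-HFSCs were skin cells sorted as CD34- and α6-integrin+ at late catagen, the end of the regression phase of the hair cycle, and chromatin immunoprecipitation followed by sequencing (ChIP-seq) gave them 1 peak list for each of 3 histone marks. Their members are the 52505 peaks of those lists, namely 18996 H3K4me3, 15273 H3K27me3 and 18236 H3K9me3 peaks, out of 219698 peaks in the 12 lists of the series. Per the labels, the cells came from CD1 x FVB male mice aged postnatal day 38 to 44, with 15 to 20 mice behind a ChIP, and the study describes the CD34- α6-integrin+ gate, for early anagen, as mostly epidermis and lower outer root sheath, so that it is a mixture of lineages. The other 3 populations, used here only for the same counts side by side, were CD34+ α6-integrin+ hair follicle stem cells of the same age (LC-HFSCs), the same stem cell gate at postnatal day 22 to 25 in early anagen (EA-HFSCs) and the CD34- gate of early anagen (non-EA-HFSCs), all from the same cross. Replicates had been pooled before peaks were called, so no error between replicates can be given and no test was made. Intervals in brackets are 95% Wilson intervals and cover counting error only.

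H3K4me3 is laid down by the Set1 and Mll enzymes and marks the start of active or poised genes, most of them in CpG islands. H3K27me3 is made by the Polycomb complex with Ezh1 or Ezh2 and spreads over silent developmental regulators. Where it lies with H3K4me3 the site is called bivalent. The word is used here for peaks that overlap or that lie at the same gene start. Each mark had a separate ChIP on a mixture of cells, so such peaks can come from different cells. Whether both marks lay in the same cell was not tested. H3K9me3 is made by Suv39h1, Suv39h2 and Setdb1, is read by the HP1 proteins, and is best known from heterochromatin over satellite and transposable repeats and from zinc finger gene clusters. In skin, Polycomb is known to hold lineage genes of other tissues silent in epidermal progenitors.

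The peak score of the files is -10 times the log10 of the peak caller's p-value, so that 100 stands for 1e-10. The lists differed in reach. H3K4me3 peaks covered 37.5 Mb, or 1.46% of the gap-free genome, with a median width of 1793.5 bp and a median score of 713. H3K27me3 peaks covered 35.9 Mb (1.40%), with a median width of 1469 bp and a median score of 70.7. H3K9me3 peaks covered 11.7 Mb (0.458%), with a median width of 578 bp and a median score of 49.6, and 4.47% of them reached a score of 100 against 81.1% of H3K4me3 and 34.8% of H3K27me3 peaks. The non-EA-HFSCs had 17873 H3K9me3 peaks and the EA-HFSCs 42277, whereas the LC-HFSCs had 1414. The files hold no read depths, and the study gives them as a range over all samples, with the LC-HFSCs read more deeply than the EA-HFSCs, and states that reads were too few for H3K27me3 and H3K9me3 peaks to reach saturation. The part of depth in the non-LC-HFSC counts was not tested.

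The gate was checked against marker genes, by peaks within 3000 bp of the annotated gene start. H3K4me3 was at 11 of 13 basal keratinocyte markers, among them Krt14 under a peak of 8915 bp and Krt5 under a peak of 7788 bp, which encode the paired keratins of the basal layer. The other 2 entries, Trp63, the p63 regulator of stratified epithelia, and Itga6, the integrin of the sort, had no mark at the annotated gene start, while the start of another annotated transcript had H3K4me3 at Itga6 and H3K4me3 with H3K9me3 at Trp63. Among markers of cells outside the keratinocyte lineage, H3K4me3 was at 3 of 10 dermal fibroblast, 1 of 8 melanocyte, 1 of 10 leukocyte and 1 of 6 endothelial genes, and H3K27me3 was at 6, 3, 3 and 2 of these, beside 56.6% and 11.9% of all genes. Cd34, the surface protein absent from the gate, carried H3K27me3 alone under a peak of 1751 bp with a score of 120.

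To show what the shared stretches look like, 200 bases are given from the middle of the sequence shared by the best peaks of each combination, at its highest-ranked locus whose peaks shared sequence outside untranslated regions. Loci were ranked by the summed within-list score ranks of their best peaks. All are from the mm9 assembly (NCBIM37), plus strand, with CpG dinucleotides in capitals. For H3K4me3 and H3K27me3 it was chr2:56966591-56966790, in an intron of Nr4a2, an orphan nuclear receptor, and in the promoter window of another of its transcripts, with 14 CpG. For H3K4me3 and H3K9me3 it was chr8:8661269-8661468, in the promoter 129 bp from the start of Efnb2, which encodes an ephrin ligand, with 22 CpG. For H3K27me3 and H3K9me3 it was chr11:33097473-33097672, intergenic beside Tlx3, a homeobox gene of neurons, with 4 CpG. For all 3 marks it was chr7:123177524-123177723, in an intron of Sox6, with 13 CpG.
H3K4me3 and H3K27me3, Nr4a2: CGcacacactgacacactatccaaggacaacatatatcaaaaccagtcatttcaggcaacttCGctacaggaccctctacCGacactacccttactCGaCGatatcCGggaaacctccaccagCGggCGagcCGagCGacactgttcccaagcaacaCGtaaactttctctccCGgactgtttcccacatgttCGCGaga
H3K4me3 and H3K9me3, Efnb2: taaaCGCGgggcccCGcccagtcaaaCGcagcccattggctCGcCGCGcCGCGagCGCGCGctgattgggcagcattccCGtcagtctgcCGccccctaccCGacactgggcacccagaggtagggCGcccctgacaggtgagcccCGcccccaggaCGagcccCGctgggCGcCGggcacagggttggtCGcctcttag
H3K27me3 and H3K9me3, Tlx3: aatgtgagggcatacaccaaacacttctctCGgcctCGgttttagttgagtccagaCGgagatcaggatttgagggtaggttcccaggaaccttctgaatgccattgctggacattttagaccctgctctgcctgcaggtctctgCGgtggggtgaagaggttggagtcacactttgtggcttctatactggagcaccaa
All 3 marks, Sox6: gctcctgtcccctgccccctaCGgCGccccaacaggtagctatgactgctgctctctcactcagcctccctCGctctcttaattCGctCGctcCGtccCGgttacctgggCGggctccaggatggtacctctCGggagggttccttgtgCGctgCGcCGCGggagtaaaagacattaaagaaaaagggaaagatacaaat

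Most marked sites carried a single mark. Peaks of the 3 lists that overlapped or touched merged into 46825 loci, of which 42401 (90.6%, interval 90.3 to 90.8) held 1 mark, 4154 (8.87%, 8.62 to 9.13) held 2 and 270 (0.577%, 0.512 to 0.649) held all 3. Among the 2-mark loci, H3K4me3 with H3K9me3 was the most frequent with 1589 loci (3.39%), followed by H3K27me3 with H3K9me3 with 1439 (3.07%) and the bivalent pair of H3K4me3 with H3K27me3 with 1126 (2.40%). Loci of each pair were not counted at other score minimums, but peak counts moved with them. With all peaks, 1769 H3K9me3 peaks lay on H3K4me3 and 2267 on H3K27me3, and 1618 H3K27me3 peaks lay on H3K4me3. At a score of at least 50 these counts were 900, 1213 and 1511, and at 100 they were 44, 169 and 872. By sequence rather than by locus, 94.9% of the 80.9 marked Mb lay under 1 mark and 0.0513 Mb under all 3. The 3 marks thus seldom shared the same bases, although 268 H3K27me3 peaks each overlapped peaks of both other marks. These peaks had a median width of 7371.5 bp, beside 7986.5 bp for the 3-mark loci, which held 4.23 peaks on average.

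**Figure D1:**
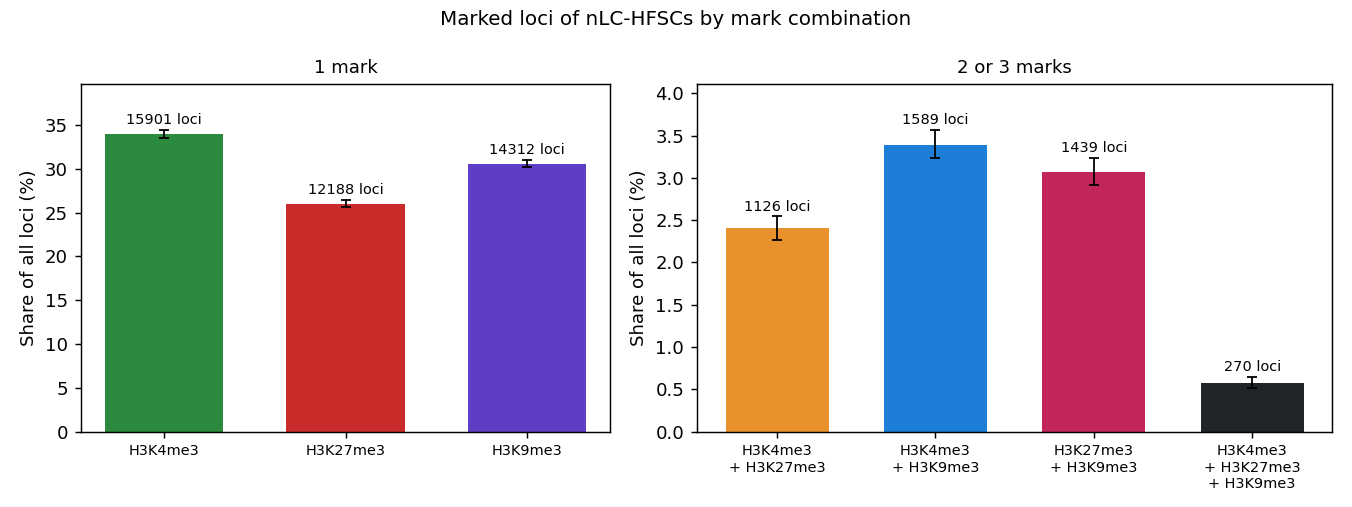
Share of the 46825 merged loci of non-LC-HFSCs (labelled nLC-HFSCs in the plot) in each mark combination, on separate linear axes for 1 mark and for 2 or 3 marks, with 95% Wilson intervals as error bars and the number of loci above each bar. The single marks hold 15901, 12188 and 14312 loci and the combinations between 270 and 1589.

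Each list overlapped each other list at between 7.91% and 12.4% of its peaks. Of H3K27me3 peaks, 1618 (10.6%, 10.1 to 11.1) lay on an H3K4me3 peak and 1734 (11.4%, 10.9 to 11.9) on an H3K9me3 peak. Of H3K9me3 peaks, 1769 (9.70%, 9.28 to 10.1) lay on H3K4me3 and 2267 (12.4%, 12.0 to 12.9) on H3K27me3. Of H3K4me3 peaks, 1502 (7.91%, 7.53 to 8.30) lay on H3K27me3 and 1712 (9.01%, 8.61 to 9.43) on H3K9me3. As a scale for these shares, the bases of a mark that lay under another mark were 9.71% for H3K9me3 under H3K4me3, which covers 1.46% of the genome, and 12.8% for H3K9me3 under H3K27me3, which covers 1.40%.

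The median gap to the nearest peak of another mark ranged from 15832 to 101691 bp. The median gap from an H3K27me3 peak to the nearest H3K9me3 peak was 15832 bp, and to the nearest H3K4me3 peak 31214 bp. From an H3K9me3 peak the median gap was 30419.5 bp to H3K4me3 and 81075 bp to H3K27me3, and from an H3K4me3 peak 33482 bp to H3K9me3 and 101691 bp to H3K27me3. As a scale, the median gap from a protein-coding gene start was 40813 bp to H3K9me3 and 114900 bp to H3K27me3. Both were longer than the gaps from peaks of the other marks. To H3K4me3 the gap from gene starts was 0 bp, with 52.4% of starts on or touching a peak. Near misses were fewer than overlaps in 5 of the 6 directions: a gap of 1 to 5000 bp separated 3.95% of H3K4me3 peaks from H3K27me3, while 7.91% overlapped or touched it. The pair H3K27me3 to H3K9me3 went the other way, with 17.5% of H3K27me3 peaks at such a gap and 11.4% overlapping.

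The bivalent pair overlapped mostly in part, with most of the H3K4me3 peak shared at the median. Of 1727 overlapping H3K4me3 and H3K27me3 peak pairs, 61.4% overlapped in part, 34.6% had the H3K4me3 peak wholly inside the H3K27me3 peak and 4.05% the reverse, with a median of 846 shared bp. H3K27me3 covered a median of 89.3% of an overlapped H3K4me3 peak, and H3K4me3 a median of 28.6% of an overlapped H3K27me3 peak. The H3K4me3 peaks of bivalent sites were narrow and low, with a median width of 1312 bp and a median score of 167, against 1750 bp and 681 for H3K4me3 alone. Their sequence was richer in GC, 58.4% against 52.4%, and 70.04% of them lay within 3000 bp of a gene start against 59.9%. With the peaks cut into 5 equal groups by score, from low to high, 12.4%, 15.9%, 8.42%, 1.66% and 1.16% of H3K4me3 peaks lay on H3K27me3. The H3K27me3 side ran the other way, from 2.72% of the lowest-scoring to 27.7% of the highest-scoring group on H3K4me3.

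H3K9me3 peaks on H3K4me3 sat inside the strongest H3K4me3 peaks. Of 1771 such pairs, 92.5% had the H3K9me3 peak wholly inside the H3K4me3 peak, and in 84.1% the middle of the H3K9me3 peak fell in the inner 50% of the H3K4me3 peak. The host peaks that carried H3K9me3 and no H3K27me3 had a median width of 2587 bp and a median score of 2216, and 88.6% of them lay within 3000 bp of a gene start. The share of H3K4me3 peaks on H3K9me3 rose over the score groups from 1.40% through 2.05%, 3.71% and 11.7% to 26.2%. The density of H3K9me3 peaks inside them rose too, from 10.1 to 82.2 peak middles per Mb, against 7.13 per Mb over the gap-free genome, so the rise was also there per length of host peak. The H3K9me3 peaks themselves were unremarkable in height, with a median score of 50.0 on H3K4me3 against 49.2 alone, and 2.17% of those on H3K4me3 reached 100 against 3.98% alone. Their sequence had 58.5% GC and an observed over expected CpG ratio of 0.727, above the 52.1% and 0.595 of the whole host peaks, and 49.2% of them had their middle in a promoter. In contrast, H3K9me3 peaks without another mark had 44.4% and 0.191, the latter equal to the genome's 0.191.

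The same sites were looked up in the peak lists of the other populations. Of the 1656 H3K9me3 peaks on H3K4me3 alone, 99.0% lay on an H3K4me3 peak of non-EA-HFSCs, 96.8% on one of LC-HFSCs and 98.7% on one of EA-HFSCs, whereas they lay on an H3K9me3 peak in 0.966%, 0.543% and 78.2%. For the 14313 H3K9me3 peaks without another mark, the shares on an H3K9me3 peak were 30.2%, 6.84% and 12.3%. Of the 15901 H3K4me3 peaks without another mark, 40.2% lay on an H3K9me3 peak of EA-HFSCs. Within non-EA-HFSCs, H3K9me3 peak middles were 0.173 times as dense inside H3K4me3 peaks as over the genome, within LC-HFSCs 0.144 times (3 peaks) and within EA-HFSCs 10.5 times, beside 6.38 times in non-LC-HFSCs. The score of the H3K4me3 host and the peak list of each population moved with the overlap, and their part in it was not tested. Over the 5 groups of H3K9me3 score the overlap varied little. From the lowest to the highest group, 8.98%, 9.95%, 9.54%, 10.1% and 9.95% of H3K9me3 peaks lay on H3K4me3. The highest group starts at a score of 64.08, and the share was lower only among the highest scores within it. Of the 816 H3K9me3 peaks with a score of at least 100, 5.39% (4.04 to 7.16) lay on H3K4me3.

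**Figure D2:**
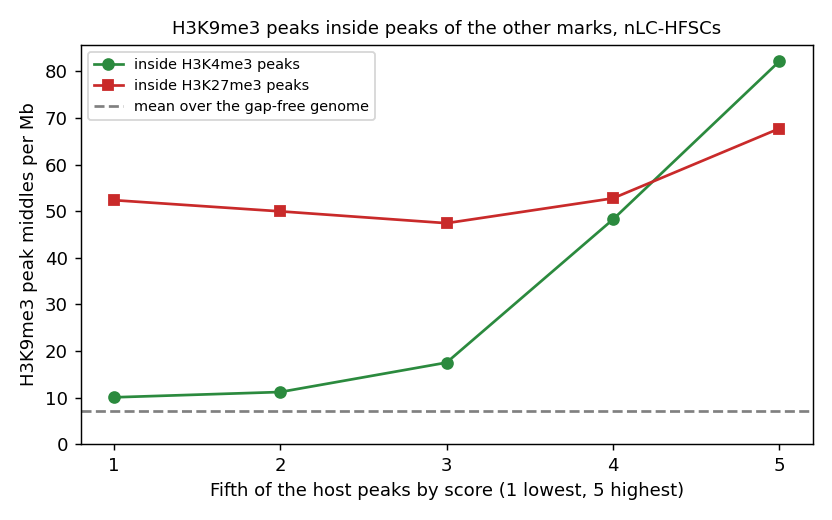
Number of H3K9me3 peak middles per Mb of H3K4me3 (circles) or H3K27me3 (squares) peaks of non-LC-HFSCs, in 5 equal groups of the host peaks ordered by score, with the mean over the gap-free genome as a dashed line at 7.13. Density inside H3K4me3 peaks climbs from 10.1 to 82.2, while inside H3K27me3 peaks it stays between 47.4 and 67.8.

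H3K9me3 on H3K27me3 was dense at every H3K27me3 score. The share of H3K27me3 peaks on H3K9me3 rose over the score groups from 6.39% through 6.81%, 8.01% and 10.9% to 24.6%, and 1207 of 2124 H3K9me3 middles lay in the highest group, whose peaks are the widest. Per length the rise was smaller. The density was 52.4 peak middles per Mb in the lowest score group, 47.4 in the middle group and 67.8 in the highest, all above the 7.13 of the genome. Of 2290 pairs, 76.5% had the H3K9me3 peak wholly inside, and its middle fell in the inner 50% of the H3K27me3 peak in 53.1%, so that it had no central place there. A single H3K27me3 peak held up to 13 H3K9me3 peaks. The 2154 H3K9me3 peaks on H3K27me3 alone were 65.2% intergenic, with 46.5% GC and a CpG ratio of 0.260, and 9.15% reached a score of 100. Of these, 20.9% lay on an H3K9me3 peak of non-EA-HFSCs and 54.8% on one of EA-HFSCs.

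The widest of all merged loci were H3K27me3 domains of developmental regulators, studded with H3K9me3 peaks. The first was chr11:96021023-96083421, 62399 bp around Hoxb13, a posterior Hox gene, with 11 H3K9me3 peaks inside 1 H3K27me3 peak. It was followed by 49643 bp around Pax2, a kidney and eye regulator, with 2 H3K4me3 and 4 H3K9me3 peaks, and by 48490 bp around Hand2, a heart and limb regulator, with 6 H3K9me3 peaks. The domain over Gata4, a heart and gut factor, spanned 46856 bp with 10 H3K9me3 peaks and that of Hoxa13 spanned 44006 bp with 11. The domain over Cdkn2a and Cdkn2b, cell cycle inhibitors that Polycomb is known to silence in dividing cells, spanned 43000 bp with 2 H3K4me3 and 8 H3K9me3 peaks.

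Width followed combination for H3K4me3 and H3K27me3 and hardly for H3K9me3. The median H3K27me3 peak was 1367 bp alone, 1900.5 bp with H3K9me3, 2383 bp with H3K4me3 and 7371.5 bp with both, and 92.5% of the last reached a score of 100 against 27.8% of those alone. A wider peak has more room to meet another, so these widths are a description of the combinations. The median H3K9me3 peak was 572 bp alone, 615 bp with H3K4me3, 631 bp with H3K27me3 and 649 bp with both.

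**Figure D3:**
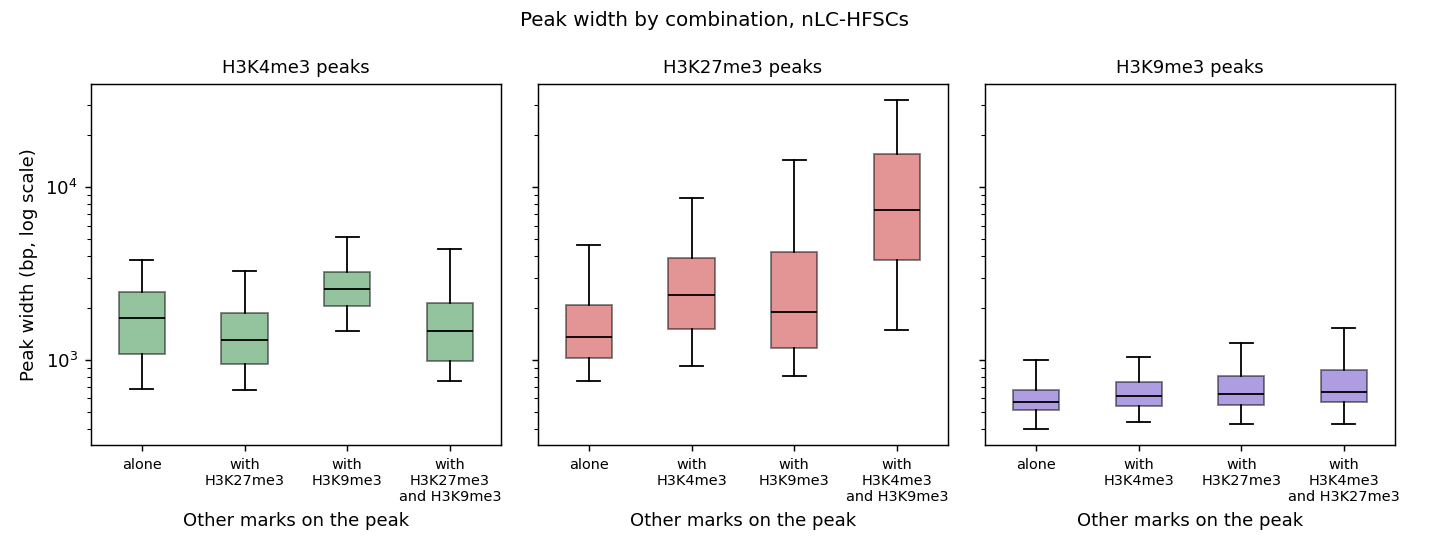
Peak widths in bp on a log axis for the 3 marks of non-LC-HFSCs, by the other marks that lie on the peak. Boxes span the quartiles with the median as a line and whiskers reach from the 5th to the 95th percentile; H3K27me3 peaks with both other marks have a median of 7371.5 bp, and H3K9me3 medians stay between 572 and 649 bp.

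Most protein-coding genes had either H3K4me3 alone or no mark at the start. Of 22367 GENCODE gene entries, with 3000 bp on each side of the annotated start, 9550 (42.7%) had H3K4me3 alone and 8036 (35.9%) none of the 3 marks. H3K27me3 alone was at 1139 (5.09%) and H3K9me3 alone at 258 (1.15%). H3K4me3 with H3K9me3 was at 1860 (8.32%), H3K4me3 with H3K27me3 at 1037 (4.64%), H3K27me3 with H3K9me3 at 265 (1.18%) and all 3 at 222 (0.993%). At a score of at least 50 the first 2 of these counts were 962 and 1036, and at 100 they were 45 and 681, so their order turned. Counted with or without the others, H3K4me3 was at 56.6%, H3K27me3 at 11.9% and H3K9me3 at 11.6% of gene starts. H3K9me3 was found at 16.3% (15.6 to 17.0) of starts with H3K4me3 and no H3K27me3, at 18.9% (16.9 to 21.0) of those with H3K27me3 and no H3K4me3 and at 17.6% (15.6 to 19.8) of those with both, against 3.11% (2.76 to 3.51) of starts with neither.

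The marks of a combination lay differently around the start. In the genes with H3K4me3 and H3K27me3, H3K4me3 covered the start in 79.6% and was most frequent 100 bp downstream, while H3K27me3 covered the start in 45.5% and was most frequent 1200 bp downstream, in 66.6%. In the genes with H3K4me3 and H3K9me3, both peaked close together, H3K4me3 in 97.0% at 100 bp and H3K9me3 in 53.1% at 200 bp downstream, and at 3000 bp upstream H3K9me3 was left in 3.23%. In the genes with H3K27me3 and H3K9me3, H3K9me3 covered no position in more than 18.9% of genes and H3K27me3 covered the start in 81.1%. Genes with all 3 marks had H3K4me3 over the start in 73.4%, H3K27me3 in 59.5% and H3K9me3 in 10.8%.

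**Figure D4:**
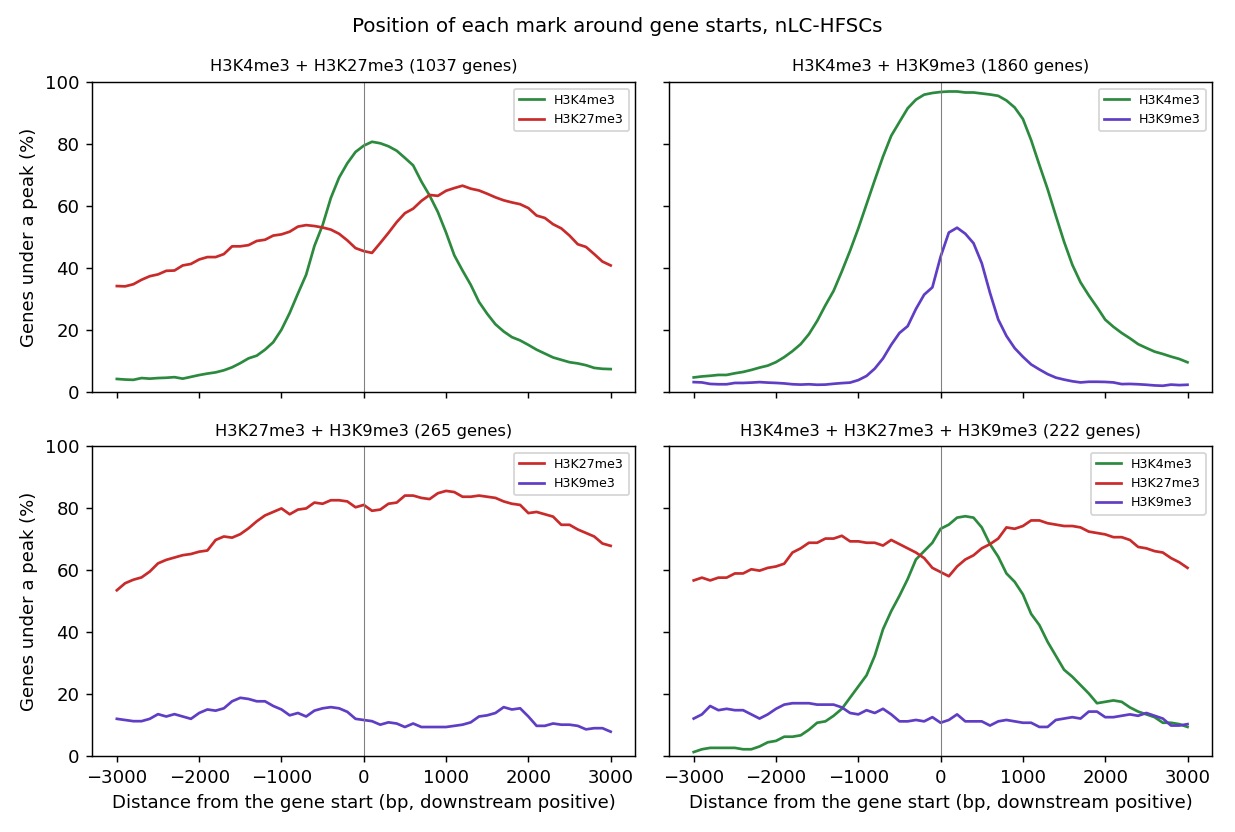
Percentage of genes under a peak of each mark at distances from 3000 bp upstream to 3000 bp downstream of the gene start, for the 4 combinations of 2 or 3 marks in non-LC-HFSCs. H3K27me3 dips at the start in the combinations with H3K4me3. Genes with H3K27me3 alone, not plotted, have it over 63.4% of starts, beside up to 65.9% upstream and 70.9% downstream. H3K9me3 has a peak just downstream of the start (53.1% of genes) in the H3K4me3 and H3K9me3 combination and reaches no more than 18.9% in the other combinations.

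Genes are named by the smallest sum of within-list score ranks of their best peaks, 5 for a combination, with scores of 3100 and over tied because the peak caller's p-value has reached its lower limit there. For H3K4me3 with H3K27me3 they were Hs3st3b1, a heparan sulfate sulfotransferase, Igf1r, the receptor of insulin-like growth factor 1, Cux1, a homeobox factor, and the divergent pair Chchd7 and Plag1, which share both peaks. At Igf1r an H3K4me3 peak of 4985 bp with a score of 3100 met an H3K27me3 peak of 10446 bp with a score of 582. At Cux1 the widths were 4457 and 4505 bp and the H3K27me3 score was 523. All 5 carried the same pair in non-EA-HFSCs, and in LC-HFSCs Hs3st3b1 carried the pair and the other 4 H3K4me3 alone.

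For H3K4me3 with H3K9me3 the first 5 were Efnb2 and its divergent neighbour 4921522P10Rik, Ssu72, a phosphatase of the RNA polymerase II tail, and the divergent pair Cep170 and Sdccag8, which encode centrosomal proteins. At Efnb2 the H3K4me3 peak spanned 9373 bp and the H3K9me3 peak within it 1225 bp, with scores of 3100 and 141. At Ssu72 the widths were 2519 and 765 bp and the H3K9me3 score was 124. All 5 had H3K4me3 alone in non-EA-HFSCs and LC-HFSCs and H3K4me3 with H3K9me3 in EA-HFSCs, where 34.5% of all genes had this pair. Over the 1860 genes of the combination, the median H3K9me3 score was 50.3 and 45 reached 100.

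For H3K27me3 with H3K9me3 they were B4galt5, a galactosyltransferase, the neighbours Nr2e1, a nuclear receptor of neural progenitors, and Ostm1, the homeobox gene Hhex, and Gm14396 at the Hoxd cluster. At Hhex an H3K27me3 peak of 11302 bp with a score of 1664 held an H3K9me3 peak of 1474 bp with a score of 190. At Nr2e1 the H3K27me3 peak spanned 33882 bp with a score of 1562 and its best H3K9me3 peak 1094 bp with a score of 226. For all 3 marks they were 1110006G14Rik inside Sox6, Taf7, Zranb2, Heatr6 and Tshz3, a zinc finger homeobox gene. At Tshz3 the scores were 2482 for H3K4me3, 1608 for H3K27me3 and 58.2 for H3K9me3, and at Zranb2 they were 1780, 1022 and 101.45. Over the 222 genes the median H3K27me3 peak at the start was 4016.5 bp wide, against 2731 bp over the 1139 genes with H3K27me3 alone.

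The single marks had leading genes of other kinds. H3K27me3 alone was led by Nkx2-2, a neural homeobox gene, and Tlx3, both with a score of 3100, then by Hoxa10, Prrx1, a mesenchymal homeobox gene, and Rax, an eye homeobox gene. Tlx3 had its H3K9me3 peak at the neighbouring stretch shown above, outside the window of the start. H3K4me3 alone had 777 genes tied in first place, so the first 5 by symbol, 0610007P14Rik, 0610009L18Rik, 1110001J03Rik, 1110002L01Rik and 1110008L16Rik, stand for no more than the alphabet. H3K9me3 alone was led by Gm10800 and Gm10801 on chromosome 2 and by Gm10106, Gm10715 and Gm17535, which share a peak of 4188 bp at the start of chromosome 9, and these are predicted genes in stretches known to hold satellite repeats. How reads of the many genomic copies of such repeats were placed affects these scores and was not tested.

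Gene lists divided along the combinations. Of 20 regulators of other lineages, H3K27me3 was at 19 and H3K9me3 at 14, beside 11.9% and 11.6% of all genes, with 9 in the H3K27me3 and H3K9me3 combination, 5 in the 3-mark combination, 3 with H3K27me3 alone and 2 with H3K4me3 and H3K27me3. Foxa2, an endoderm factor, carried H3K27me3 over 27160 bp with a score of 1401 and H3K9me3 with a score of 60.05. Nkx2-5, a heart factor, had scores of 1712 for H3K27me3 and 49.6 for H3K9me3. Eomes, a T-box factor, carried all 3 marks, with 417 for H3K4me3, 574 for H3K27me3 and 52.0 for H3K9me3. Myf5, a muscle factor, had none of the marks, while Myod1, its relative, had H3K27me3 alone over 9025 bp.

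Developmental gene families differed in how many members had H3K27me3 and in the mark beside it. H3K27me3 was at 9 of 9 Pax, 14 of 14 Nkx, 10 of 10 Lhx and Isl and 6 of 6 Dlx genes, and at 3 of 6 Irx, 9 of 13 Tbx and 12 of 19 Sox entries. In the Pax, Nkx, Lhx and Isl, and Dlx families, H3K4me3 was at 1, 3, 6 and 6 genes, and H3K9me3 at 6, 4, 5 and 3. The shares of all genes were 56.6% for H3K4me3, 11.9% for H3K27me3 and 11.6% for H3K9me3. H3K4me3 at 60% of the Lhx and Isl genes was close to the first of these. Pax3, Pax5, Pax6, Pax7 and Pax9 had H3K27me3 with H3K9me3, and Pax2 had all 3 marks. Among 13 Tbx genes, Tbx4, Tbx15, Tbx18 and Tbx20 had H3K27me3 with H3K9me3 and Tbx2 and Tbx3 all 3 marks. Of 42 Fox genes, H3K27me3 was at 22 and H3K9me3 at 13, and the Foxo genes Foxo1, Foxo3, Foxo4 and Foxo6 had H3K4me3 alone. Of 19 Sox entries, of which Sox4 is listed 2 times, Sox18, Sox5 and Sox9 had all 3 marks, and Sox2 and Sox10 H3K27me3 alone.

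The Hox genes fell into 6 of the combinations. Of 40 Hox entries, of which Hoxa3 is listed 2 times, 18 had H3K4me3 alone, among them Hoxa5, Hoxb2, Hoxb4, Hoxc4 and Hoxc8. That is 45%, close to the 42.7% of all genes. Counted with or without other marks, H3K27me3 was at 47.5% and H3K9me3 at 35% of the entries, beside 11.9% and 11.6% of all genes. Hoxa7, Hoxb8, Hoxb9 and Hoxc13, the last a hair shaft regulator, had H3K4me3 with H3K27me3, and Hoxa9, Hoxa10, Hoxb13 and Hoxd8 H3K27me3 alone. The posterior Hoxa11, Hoxa13, Hoxd9, Hoxd10, Hoxd11, Hoxd12 and Hoxd13, together with Hoxd3 and Hoxd4, had H3K27me3 with H3K9me3, and Hoxb7 and Hoxd1 had all 3. Hoxc10, Hoxc11 and Hoxc12 had H3K9me3 alone.

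Hair follicle genes often had the bivalent pair, which was at 4.64% of all genes. Whether both marks of a gene lay in the same cells of the mixed gate was not tested. Of 14 bulge stem cell genes, H3K4me3 was at 10 and H3K27me3 at 9, and 5 had exactly this pair: Lgr5, Tcf7l1, Fgf18, Foxc1 and Tbx1. Lgr5, the Wnt pathway receptor of follicle stem cells, had scores of 123.01 for H3K4me3 and 205 for H3K27me3, and Tcf7l1, a Wnt repressor, had 378 and 137. Sox9, which the bulge needs, had all 3 marks with scores of 3100 for H3K4me3, 350 for H3K27me3 and 54.8 for H3K9me3. Lhx2, another bulge factor, had H3K27me3 alone over 11429 bp at the annotated gene start and all 3 marks when every annotated transcript start was counted. Of 12 hair matrix and shaft genes, Lef1, Msx2, Gata3 and Hoxc13 had the bivalent pair and Msx1 and Dlx3 all 3 marks. At Lef1, the Wnt effector of the matrix, the scores were 980 and 1884. In the 3-mark Msx1 the H3K27me3 peak spanned 22205 bp and scored 1880, and in Dlx3 it spanned 899 bp and scored 41.2, close to the lowest score of the list.

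No epidermal differentiation or keratin gene had exactly the bivalent pair. At the 4.64% of all genes, lists of this size would hold few such genes, so the absence is close to that share. Of 16 epidermal differentiation entries, 5 of which are copies of Flg in the annotation, 7 had H3K4me3 alone, among them Krt1, Krt10 and Lor. That is 43.75%, close to the 42.7% of all genes. The other 9 (56.25%) had none of the marks, beside 35.9% of all genes. Of 46 keratin genes, 10 (21.7%) had H3K4me3 alone, 7 (15.2%) H3K27me3 alone and 29 (63.0%) none. The shares of all genes were 42.7%, 5.09% and 35.9%. No keratin gene had more than 1 mark at the start. The 7 included Krt8 and Krt18, the keratins of simple epithelia, and the 10 included Krt5, Krt14, Krt15 and Krt17. Perp, a desmosome protein of the basal layer, had H3K4me3 over 8936 bp with an H3K9me3 peak that scored 51.3.

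In 3 signalling gene lists the bivalent pair had a higher share than the 4.64% of all genes. It was at 42.1% of Wnt, 15.8% of Frizzled and Wnt antagonist and 25.9% of BMP and TGF-beta ligand genes. Of 19 Wnt genes, H3K4me3 was at 17, H3K27me3 at 9 and H3K9me3 at 1, beside 56.6%, 11.9% and 11.6% of all genes. The bivalent pair was at 8 Wnt genes, among them Wnt5a, Wnt7a, Wnt7b and Wnt16. Wnt5a, a noncanonical ligand, had scores of 3100 and 111. Wnt10a, Wnt10b, Wnt4 and Wnt3a were among the 9 (47.4%) with H3K4me3 alone, close to the 42.7% of all genes. Of 19 Frizzled receptor and Wnt antagonist genes, 11 had H3K4me3 alone, the antagonists Sfrp1, Sfrp2 and Wif1 the bivalent pair, and Dkk1 and Sfrp5 H3K27me3 with H3K9me3. Of 27 BMP and TGF-beta ligand genes, 7 had the bivalent pair, among them Bmp6 and Inhbb, and Tgfb1, Gdf9 and Gdf15 had H3K4me3 with H3K9me3. A further 8 had none of the marks and 6 H3K4me3 alone.

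Genes that cells need in general had H3K4me3, with H3K9me3 beside it in part of each list. H3K4me3 with H3K9me3 was at 18 of 77 mitochondrial ribosomal protein genes (23.4%), 11 of 41 proteasome subunit genes (26.8%) and 13 of 79 ribosomal protein genes (16.5%), beside 8.32% of all genes. H3K4me3 with or without other marks was at 97.4%, 92.7% and 97.5% of these lists, and among all starts with H3K4me3 and no H3K27me3 the share with H3K9me3 was 16.3%, close to that of the ribosomal protein genes. It was at 7 of 24 cell cycle genes, namely Ccna2, Cdk4, Cdk6, Mcm2, Mcm5, Mcm7 and Rb1, and none of the 24 carried H3K27me3. At Mcm2, a subunit of the replicative helicase, the H3K4me3 score was 3100 and the H3K9me3 score 48.7. Of the genes for the enzymes of the marks, it was at 5 of 14 for H3K4, among them Setd1a and Kdm5a, at 5 of 15 for H3K27, among them Eed, Jarid2 and Kdm6b, and at 5 of 15 for H3K9, among them Suv39h2, Ehmt1 and Ehmt2. Bmi1 and Cbx8 of the Polycomb list had the bivalent pair. These lists are rich in high-scoring H3K4me3 peaks, on which H3K9me3 peaks were also dense, and the part of the host score in the counts was not tested.

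Zfp genes, a symbol class that holds many zinc finger repressors, had H3K9me3 in a further place. Of 371 Zfp genes, 63 (17.0%) had H3K4me3 with H3K9me3 at the start and 225 (60.6%) H3K4me3 alone, beside 8.32% and 42.7% of all genes. H3K4me3 with or without other marks was at 80.9% of them, beside 56.6% of all genes. Among all starts with H3K4me3 and no H3K27me3, 16.3% had H3K9me3. H3K9me3 lay in the gene body beyond the window in 139 (37.5%), against 15.9% of all genes, and 114 (30.7%) joined H3K4me3 at the start to H3K9me3 in the body, against 11.01% of all genes. Gene length was not equalised between the list and the rest. Of 1113 olfactory receptor genes, by contrast, 1084 (97.4%) had none of the 3 marks at the start, beside 35.9% of all genes. H3K9me3 alone was at 11 (0.988%), close to the 1.15% of all genes.

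**Figure D5:**
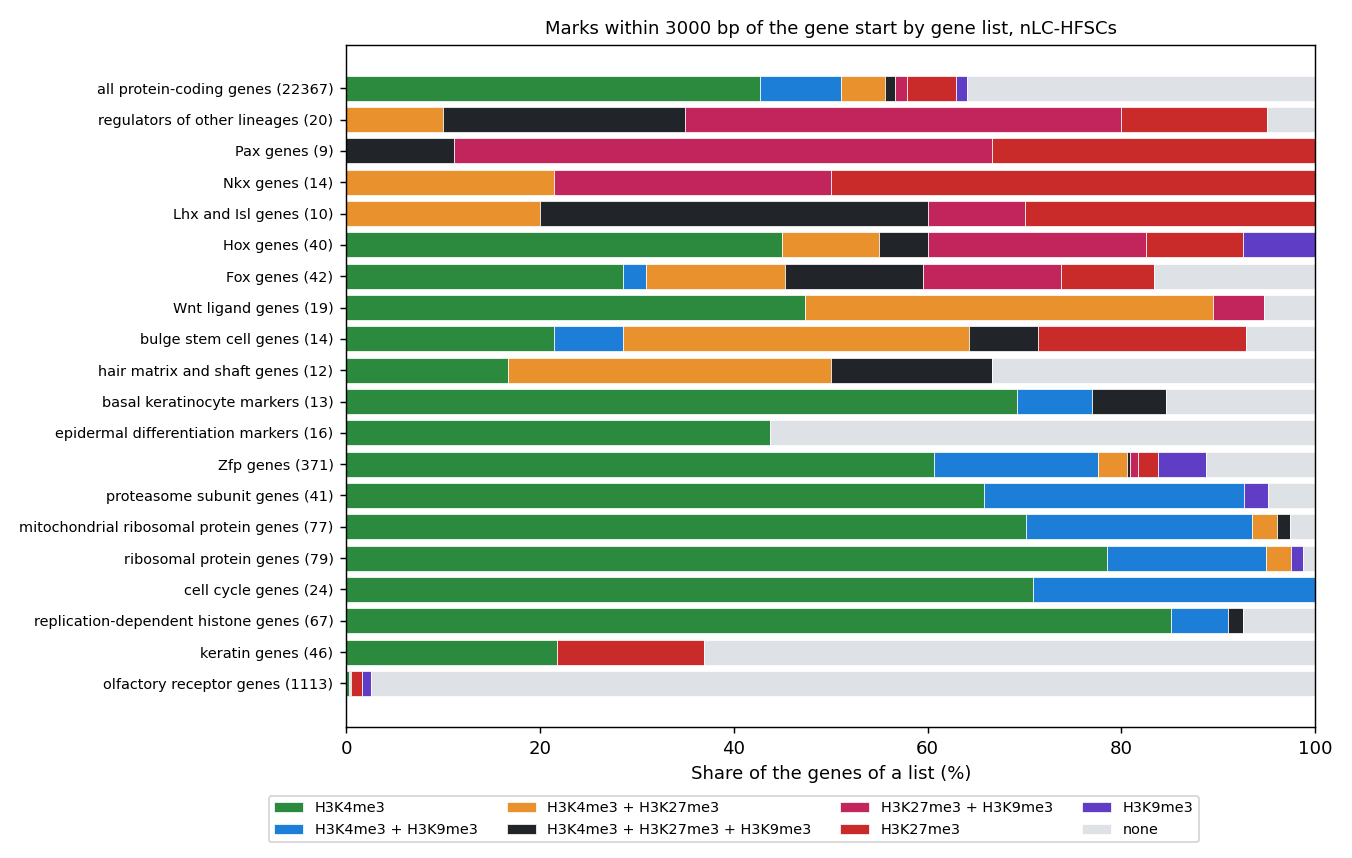
Stacked bars of the share of genes in each mark combination at the start (3000 bp on each side) in non-LC-HFSCs, for all protein-coding genes in the top row and 19 gene lists below it, with the number of gene entries in brackets. Developmental regulators are filled by combinations with H3K27me3, lists of general cell function by H3K4me3 with or without H3K9me3, and keratin and olfactory receptor genes mostly by no mark.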

How the data were processed

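ChIP-seq peaks of H3K4me3, H3K27me3 and H3K9me3 in 4 sorted mouse skin populations were analysed. Per the study's methods, nuclei were digested with micrococcal nuclease, 2 experimental replicates were pooled, reads were trimmed to 70 bases, and peaks were called with MACS against mm9 at p-value thresholds of 1e-05 for H3K4me3 and 1e-04 for the other marks. The submitters' processing notes also name Trimmomatic 0.22, Bowtie2, HOMER and Cuffdiff. The score deposited by the authors in each list is -10 times the log10 of the peak caller's p-value, and the lowest score was 50.01 for H3K4me3 and 40 for both other marks in non-LC-HFSCs. The IgG control samples have no list here and were not analysed here. The samples are labelled nLC-HFSCs, nEA-HFSCs, LC-HFSCs and EA-HFSCs, and the first 2 are written non-LC-HFSCs and non-EA-HFSCs in the text.

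Peaks sharing at least 1 bp were counted as overlapping, and overlapping or touching peaks of any mark were merged into loci. A middle was called promoter from 1000 bp upstream to 100 bp downstream of any transcript start. Gene starts were the 22367 protein-coding entries (22225 symbols) of GENCODE vM1 on NCBIM37, the assembly of mm9, and no peak ended beyond its chromosomes. Unplaced sequence held 135 peaks of non-LC-HFSCs, which entered overlaps and no gene count. Overlap, gap, merge and window steps were tested on simulated data and matched a direct count in 4 of 4 settings. Python 3.11.15, NumPy 2.4.6 and matplotlib 3.10.9 were used. Gene lists, members and named genes were chosen with earlier results of these data known, and support no list as independent evidence. Named genes were the 5 of each combination with the smallest sum of score ranks, ties by symbol, plus members of the gene lists. Alternatives were other score minimums, equal numbers of peaks, autosomes, other overlap or merge distances, other windows and every transcript start. The depth of each list is unknown here beyond the study's range over all samples, and the intervals cover counting error only.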

Additional observations from a re-analysis of the deposited data

How the results depend on the processing

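Of 86 alternative values for 12 counts, 60 stayed within 1.5 times of the value reported and 26 did not. All 12 counts stayed within it with equal numbers of top-scoring peaks from each list (15273), on autosomes only, and with peaks of a list closer than 1000 bp merged. With scores of at least 50, loci of 2 or more marks fell from 4424 to 2895, H3K9me3 peaks on H3K4me3 numbered 900 and on H3K27me3 1213, H3K4me3 peaks on H3K9me3 883 and H3K27me3 peaks on H3K9me3 961, and genes with H3K4me3 and H3K9me3 962, with H3K27me3 and H3K9me3 144 and with all 3 marks 119. With scores of at least 100, 918 loci held 2 or more marks and 34 all 3, H3K27me3 peaks on H3K4me3 numbered 872 and H3K4me3 peaks on H3K27me3 807, H3K9me3 peaks on H3K4me3 44 and H3K4me3 peaks on H3K9me3 44, H3K9me3 peaks on H3K27me3 169 and H3K27me3 peaks on H3K9me3 148, and genes with H3K4me3 and H3K27me3 681, with H3K4me3 and H3K9me3 45, with H3K27me3 and H3K9me3 29 and with all 3 marks 21. These minimums leave 8905 and then 816 of the 18236 H3K9me3 peaks by construction. As shares, H3K9me3 peaks on H3K4me3 went from 9.70% to 10.1% and 5.39%, and on H3K27me3 from 12.4% to 13.6% and 20.7%. Where at least 50% of a peak had to be covered, 408 H3K27me3 peaks lay on H3K4me3, 96 H3K4me3 peaks on H3K9me3 and 390 H3K27me3 peaks on H3K9me3. At that setting 1125 H3K4me3 peaks lay on H3K27me3, within 1.5 times of the 1502 reported. A window of 1000 bp left 122 genes with H3K27me3 and H3K9me3 and 75 with all 3 marks, and counting every transcript start gave 335 with all 3. No paired analysis was possible because each population has 1 pooled list for each mark.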

Other observations

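The combinations at gene starts were also read in the peak lists of the other populations, as values with no test. Of the 1037 genes with H3K4me3 and H3K27me3 in non-LC-HFSCs, 941 had the same pair in non-EA-HFSCs, 143 in LC-HFSCs and 132 in EA-HFSCs, where 582 had all 3 marks. Of the 1860 genes with H3K4me3 and H3K9me3, 67 had the same pair in non-EA-HFSCs, 1 in LC-HFSCs and 1508 in EA-HFSCs, and 1739, 1832 and 306 had H3K4me3 alone there. The pair was at 0.984%, 0.0268% and 34.5% of all genes in these populations. It was also at 6028 (63.1%) in EA-HFSCs of the 9550 genes with H3K4me3 alone in non-LC-HFSCs. Of the 258 genes with H3K9me3 alone, 78 had it alone in non-EA-HFSCs, 36 in LC-HFSCs and 52 in EA-HFSCs.

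Some gene groups had unlike marks among their members. Of 23 imprinted genes, Gnas, Igf2r and Slc38a4 had all 3 marks and Igf2 and Grb10 H3K27me3 with H3K9me3, and at Igf2, a fetal growth factor, the scores were 1404 for H3K27me3 and 43.3 for H3K9me3. Among 7 cyclin-dependent kinase inhibitor genes, Cdkn2a and Cdkn2b shared an H3K27me3 peak of 42141 bp and had all 3 marks, Cdkn1b had H3K4me3 with H3K9me3, and Cdkn1a and Cdkn2c had H3K4me3 alone. Of 43 collagen genes, 10 had the bivalent pair, beside 4.64% of all genes, among them Col1a1 with scores of 191 and 51.1, and Col17a1 and Col7a1 of the epidermal attachment had H3K4me3 alone. Among 24 clustered protocadherin genes, 4 had H3K9me3 alone and 19 none of the marks, beside 1.15% and 35.9% of all genes. Of 15 germ line genes, Ddx4 and Sycp1 had H3K9me3 alone, Stag3 and Tdrd1 H3K4me3 alone, and the other 11 none. Of 67 replication-dependent histone genes, 57 had H3K4me3 alone, beside 42.7% of all genes.

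Chromosome X stood apart in the number of its peaks. It held 489 H3K4me3, 86 H3K27me3 and 87 H3K9me3 peaks, 3.44% of its 639 loci had 2 or more marks and none had all 3, whereas the share on the 19 autosomes ranged from 7.82% to 10.5%. The labels give the mice as male, with 1 copy of this chromosome, and the part of copy number and of mappability in these values was not tested.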
